A study of Homo sapiens with 28 samples.

Results

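A549 and H1299 are established non-small cell lung cancer lines. A549 was derived from a lung adenocarcinoma and H1299 from a lymph node metastasis, and the 2 lines stand for 2 tumours, each grown as 1 established line. Their gene expression was compared before any drug: the arrays used here are the 2 of A549 and the 2 of H1299 that received only the vehicle, dimethyl sulfoxide (DMSO), 4 of the 28 arrays in the series. The other 24 arrays, 12 per line, came from cells given azacitidine or decitabine, cytidine analogs that deplete DNA methyltransferases, at 0.3, 1 or 3 µM for 48 h, and serve below in the shared estimate of the spread, in the filter on dim probe sets and as a second set of arrays for the same difference between the lines. Both lines were plated a day before dosing and had fresh agent daily. Total RNA was hybridised to Affymetrix human genome arrays, which carry short oligonucleotide probe sets, and each value is a MAS5 signal, a linear intensity scaled so that arrays share 1 trimmed mean. A single line per genotype means that every difference below separates these 2 lines and no property of either line can be told apart from any other.

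As background, A549 is known to carry an inactive KEAP1, the adaptor that marks the transcription factor NRF2 for destruction, to lack a functional STK11 kinase and to have lost the CDKN2A locus. H1299 is known to lack p53 and to have a mesenchymal appearance. Both lines carry an activated RAS oncogene. NRF2 switches on enzymes that detoxify electrophiles and rebuild glutathione, p53 switches on cell-cycle arrest and death genes, and DNA methylation keeps germline genes silent in most somatic cells, which is why the undrugged state matters for a study of methylation inhibitors.

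Differences are given as log2(signal + 32) of A549 minus H1299, so a positive value is higher in A549. A gene was called where limma's moderated test, fitted over all 28 arrays, had a Benjamini-Hochberg adjusted p under 0.05 across all genes tested. The 2 arrays of each line agreed closely (Pearson r across 8024 genes of 0.9889 for A549 and 0.9916 for H1299), and r across the lines lay between 0.7914 and 0.7945, a description across genes that are not independent. The trimmed mean of the 4 arrays lay between 500.136 and 500.151, the median signal between 97.5 and 123, and the 25th percentile between 19.2 and 28.3. Nothing in the labels says that the 2 arrays of a line came from separate cultures, and the p-values rest on the spread between same-group arrays pooled over all 14 groups (14 residual degrees of freedom), which may be technical. With the 4 vehicle arrays alone 4804 genes were called in place of 5229, and the number of arrays limits the precision. In bulk RNA, fewer cells that express a gene and less RNA per cell cannot be told apart. Adding 32 keeps dim probe sets from setting the fold and understates differences of genes whose signal is near it.

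The lines differed over most of the measured transcriptome. Of 8024 genes tested, 5229 (65.2%) were called, 2595 higher in A549 (32.3%) and 2634 higher in H1299 (32.8%), against a median difference of -0.003 over all genes. A difference of at least 1 (2-fold) with a call was found for 1783 genes (22.2%), of which 1044 were higher in A549 (13.0% of genes tested) and 739 in H1299 (9.21%). Differences of 3 or more were found for 260 genes, 205 higher in A549 and 55 in H1299, and for 206 of these genes the line with less signal lay under the array median on both arrays. The 2 arrays of one line lay wholly above those of the other for 5216 of the called genes and for 6399 of all 8024 tested. Of 1766 called genes with more than 1 kept probe set, 63 had another probe set called in the opposite direction. The difference given for a gene is that of its brightest probe set, and another of the same gene could give a much smaller one. A call alone therefore says little about any gene, and the lists below are described by members at 2-fold or more and by their median. The shares over all genes, 65.2% called and 13.0% and 9.21% at 2-fold or more by direction, are the background for every list count. A list count near these shares says little about the list. A list's tested members are those that passed the filter, which many did through the line where they were high, so counts and medians describe those members and not the whole list. For some lists the median over all members on the array is added. Lists without it also moved over the alternative settings described below. Their medians ran from -0.07 to 0.68 for receptors and ligands and from -1.86 to -0.11 for HOX genes. For keratins the range was 0.39 to 3.10, for liver and gut transcription factors 0.43 to 1.79.

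**Figure D1:**
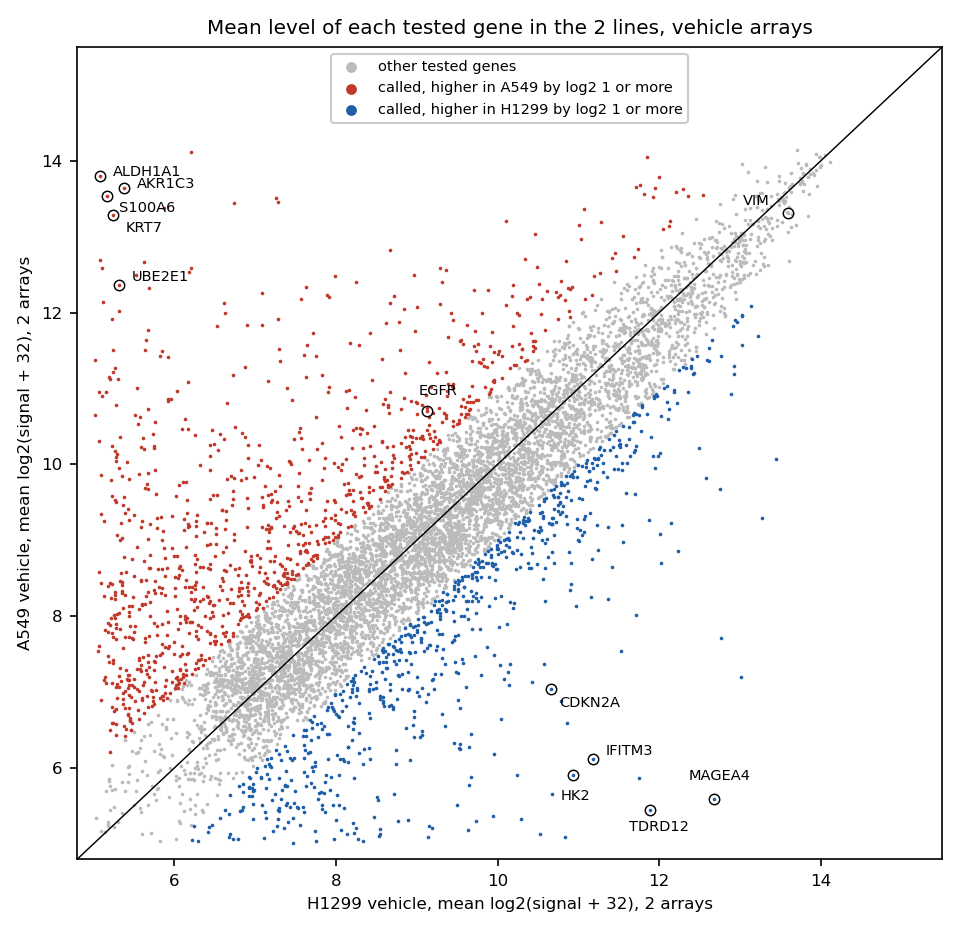
Mean log2(signal + 32) of each tested gene over the 2 vehicle arrays of H1299 (x axis) and of A549 (y axis). Red points are the genes called higher in A549 by at least 1 and blue points those called higher in H1299 by at least 1. Circled genes are named in the text; the diagonal marks equal level, and ALDH1A1 and MAGEA4 lie farthest from it on either side.

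The largest differences were between full expression and background. ALDH1A1, a retinal dehydrogenase that also marks drug-tolerant cells, read 13243 and 15307 on the A549 arrays and 1.64 and 2.12 on the H1299 arrays (difference 8.72, SE 0.080, adjusted p = 3.43e-26). S100A6, a calcium-binding protein, read 11525 and 12270 against 5.29 and 2.58 (8.38, SE 0.0963, adjusted p = 1.82e-24). KRT7, a simple-epithelium keratin, read 9512 and 10371 against 6.70 and 5.23 (8.04). In each case H1299 lay below the 25th percentile of its arrays. The other 17 of the 20 largest differences toward A549 ran from 6.26 to 8.26 and included the insulin-like growth factor binding proteins IGFBP7 (7.61) and IGFBP4 (6.96), the kynurenine-pathway enzyme KYNU (7.48), the vitamin D hydroxylase CYP24A1 (7.05), the proteoglycan SRGN (7.01), the methyltransferase NNMT (6.69), the hypoxia factor EPAS1 (6.64), TCIM (6.36) and CRIP1 (6.26). The 4 kept probe sets of KYNU ran from 2.02 to 7.48.

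MAGEA4, a cancer-testis antigen, led the other direction: the A549 arrays read 19.2 and 13.8 and the H1299 arrays 6668 and 6386 (-7.08, SE 0.197, adjusted p = 5.60e-18). TDRD12, a germline piRNA-pathway helicase, read 14.5 and 9.08 against 3707 and 3777 (-6.43, SE 0.13, adjusted p = 2.48e-20). PTX3, a secreted pattern-recognition protein, followed at -5.89, G0S2, an inhibitor of triglyceride lipase, at -5.81, IL13RA2, the decoy receptor of interleukin-13, at -5.75, and the cell-surface peptidase MME at -5.39. The other 14 of the 20 largest differences toward H1299 ran from -5.07 to -3.98. They held the interferon-induced membrane protein IFITM3 (-5.07), the hexokinase HK2 (-5.02), the sulfotransferase HS3ST3A1 (-4.57), the mannosidase MAN1A1 (-4.45), the deacetylase HDAC9 (-4.44), the kinase inhibitor PKIA (-4.33), BEX1 (-4.27), the carboxypeptidase CPVL (-4.04), the homeobox gene HOXB2 (-3.99), the Wnt effector LEF1 (-3.98) and MECOM (-3.98). The other of the 2 kept probe sets gave -1.90 for HK2 and -2.55 for MAN1A1. The 20 largest toward A549 were all larger than 6, while 2 of the 20 toward H1299 were.

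UBE2E1, a ubiquitin-conjugating enzyme expressed in most cells, was among them. Its signal was 4782 and 5773 in A549 and 6.33 and 9.40 in H1299 (7.05, SE 0.122, adjusted p = 3.54e-21), and no drug-treated H1299 array exceeded 15.3. Its nearest tested neighbours on the chromosome were not lower in H1299: KAT2B read 472 and 444 against 622 and 642 (-0.44), RAB5A 2411 and 2502 against 2570 and 2209 (0.04, not called) and NR1D2 113 and 126 against 165 and 168 (-0.39). The next gene, the retinoic acid receptor RARB, was lower in H1299, at 52.4 and 38.6 against 516 and 488 in A549 (2.79). The UBE2E1 value rests on 1 probe set, and whether the transcript or only the probed stretch is missing in H1299 was not tested.

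All 31 tested NRF2 targets were higher in A549, 23 of them by at least 1, with a median of 2.42. The aldo-keto reductases, which reduce reactive aldehydes and ketones, led. AKR1C3 read 11831 and 13790 in A549 and 1.16 and 20.4 in H1299 (8.26, SE 0.161, adjusted p = 1.97e-20). AKR1B10 read 16115 and 19598 against 27.6 and 59.6 (7.91, SE 0.227, adjusted p = 9.27e-18). AKR1C2 (7.51) and AKR1C1 (6.25) are close copies of AKR1C3 whose probe sets may share targets, so the 3 are not independent. The aldehyde dehydrogenase ALDH3A1 (6.70), the conjugate exporters ABCC3 (5.97), ABCC2 (4.16) and ABCC1 (2.71), the glutathione peroxidase GPX2 (5.65) and the heme oxygenase HMOX1 (3.43) were higher as well. Among genes that make or recycle glutathione, the cystine transporter SLC7A11 differed by 3.30, the ligase subunits GCLC by 2.08 and GCLM by 1.42, and the reductase GSR by 1.46. Also higher were ME1 (2.77) and PGD (2.42), which supply NADPH, and the further pentose phosphate enzymes TKT (2.14) and TALDO1 (1.45). NQO1, the quinone reductase most used as a marker of NRF2, read 10867 and 12603 against 3743 and 3972 (1.59, SE 0.0922, adjusted p = 1.74e-12). The smallest differences were in BLVRB (0.41) and CBR3 (0.35). The A549 and H1299 arrays did not overlap for either, as was so for 6399 of the 8024 genes tested.

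The transcripts of the regulators themselves were close. NFE2L2, which encodes NRF2, read 3739 and 3416 in A549 and 3086 and 3033 in H1299 (0.22, SE 0.0616, adjusted p = 0.00341), and the call was lost without A549 replicate 1 (0.16, adjusted p = 0.0665). KEAP1 read 687 and 683 against 706 and 818, a difference of -0.14 with a 95% interval from -0.38 to 0.10 that did not pass (adjusted p = 0.282).

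Promoters of 22 of the 31 NRF2 targets were found in the RefSeq promoter table (build GRCh38.p14), and 7 of the 22 held the core of the antioxidant response element, TGACNNNGC on either strand, within 250 bases before to 50 after the start site. Among all 27305 promoters listed there, the share was 13.5%. GPX2 and TXNRD1, the thioredoxin reductase (12466 and 13282 against 3320 and 3359, 1.94), are shown because they carry the match beside a large signal. The windows run from 200 bases before to 10 after the start, 5′ to 3′ on the gene's strand, and capitals mark the matches. GPX2 lies on the minus strand at chr14:64942736-64942945 with a match that begins 122 bases before the start, and TXNRD1 on the plus strand at chr12:104215579-104215788 with matches that begin 99 and 8 bases before it.
GPX2: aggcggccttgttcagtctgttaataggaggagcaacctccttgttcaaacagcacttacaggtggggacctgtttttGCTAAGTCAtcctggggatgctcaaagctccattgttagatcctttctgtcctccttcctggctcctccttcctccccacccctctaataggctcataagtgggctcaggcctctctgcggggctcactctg
TXNRD1: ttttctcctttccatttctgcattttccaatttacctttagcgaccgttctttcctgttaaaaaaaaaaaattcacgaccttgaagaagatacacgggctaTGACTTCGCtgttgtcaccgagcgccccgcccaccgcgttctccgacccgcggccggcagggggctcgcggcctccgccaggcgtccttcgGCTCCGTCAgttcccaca
A match is a description of the letters and not a measured binding site.

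**Figure D2:**
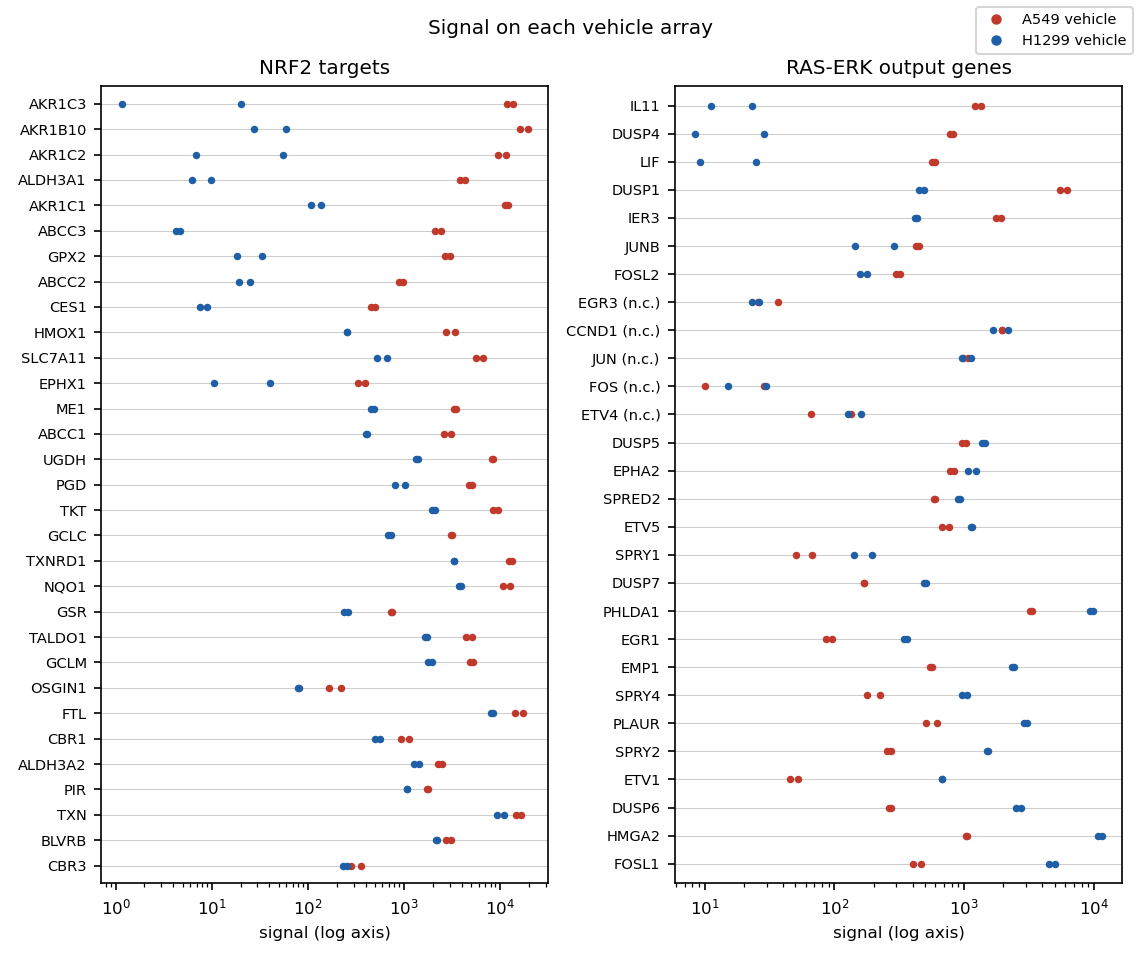
Signal (log axis) of every tested NRF2 target (left) and ERK output gene (right) on the 2 A549 vehicle arrays (red) and the 2 H1299 vehicle arrays (blue); n.c. marks genes that were not called. All 31 genes on the left were called higher in A549, whereas on the right 16 genes were called higher in H1299 and 7 higher in A549.

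Other enzymes of drug and aldehyde metabolism went the same way more often than not. Of 21 tested, 15 were higher in A549 (12 by at least 1) and 3 higher in H1299 (1 by at least 1), with a median of 1.35. The median over all 30 on the array was 0.41. After ALDH1A1, CYP24A1 and NNMT came the aldehyde dehydrogenases ALDH2 (1328 and 1191 against 61.8 and 71.1, 3.71), ALDH3B1 (2.76) and ALDH1A3 (2.52), and the 15 also held the glutathione transferases GSTM3 (617 and 598 against 129 and 122, 2.02) and GSTP1 (4963 and 5997 against 1776 and 1703, 1.63). The galactosyltransferase UGT8 read 2.02 and 6.48 in A549 and 205 and 267 in H1299 (-2.88), and GSTA4 (-0.51) and the thiopurine methyltransferase TPMT (-0.51) were the others higher in H1299.

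Of 34 tested p53 targets, 20 were higher in A549 and 7 in H1299, 12 and 3 of them by at least 1, with a median of 0.56. TP53I3, a quinone oxidoreductase, read 3307 and 3431 against 349 and 280 (3.30, SE 0.101, adjusted p = 2.65e-17). The cytokines LIF (3.65) and GDF15 (3.12), the AKT inhibitor PHLDA3 (2.77) and the DNA damage sensor DDB2 (1.61) were also higher in A549. CDKN1A, the p21 inhibitor of cyclin-dependent kinases, read 1078 and 1259 in A549 and 451 and 422 in H1299 (1.35, SE 0.0955, adjusted p = 4.99e-11). MDM2, the ubiquitin ligase that p53 induces, did not pass: 181 and 142 against 110 and 127, a difference of 0.35 with a 95% interval from -0.08 to 0.79 (adjusted p = 0.143). The other of its 2 kept probe sets gave -0.76, the opposite direction. The list thus held targets that did not follow its majority, among them the cyclins CCNG2 (196 and 153 against 696 and 651, -1.78) and CCNG1 (2533 and 2541 against 5013 and 5115, -0.99). TP53I11 differed by -1.03 on its brightest probe set and by 0.71 on another, so its direction is not settled.

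CDKN2A, which encodes the p16 inhibitor of CDK4, read 102 and 98.0 in A549 and 1549 and 1629 in H1299 (-3.62, SE 0.176, adjusted p = 8.64e-14), and its other kept probe set gave -3.08. MTAP, the methionine-salvage enzyme encoded beside it, depended on the probe set. The brightest of its 4 kept probe sets read 224 and 219 against 164 and 163 (0.37, adjusted p = 0.0559). The others read 9.34 and 5.37 against 673 and 705 (-4.20), 14.8 and 2.59 against 396 and 440 (-3.48), and 107 and 87.8 against 112 and 68.5 (0.10). On 2 of the 4 probe sets MTAP therefore stood at background in A549 alone, and the rule of 1 probe set per gene picked one on which it did not. Of the other tested genes of the region, KLHL9 (0.58) and MLLT3 (0.38; adjusted p = 0.236 without A549 replicate 1 and 0.233 without H1299 replicate 2) were higher in A549 and FOCAD (0.25) was not called.

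**Figure D3:**
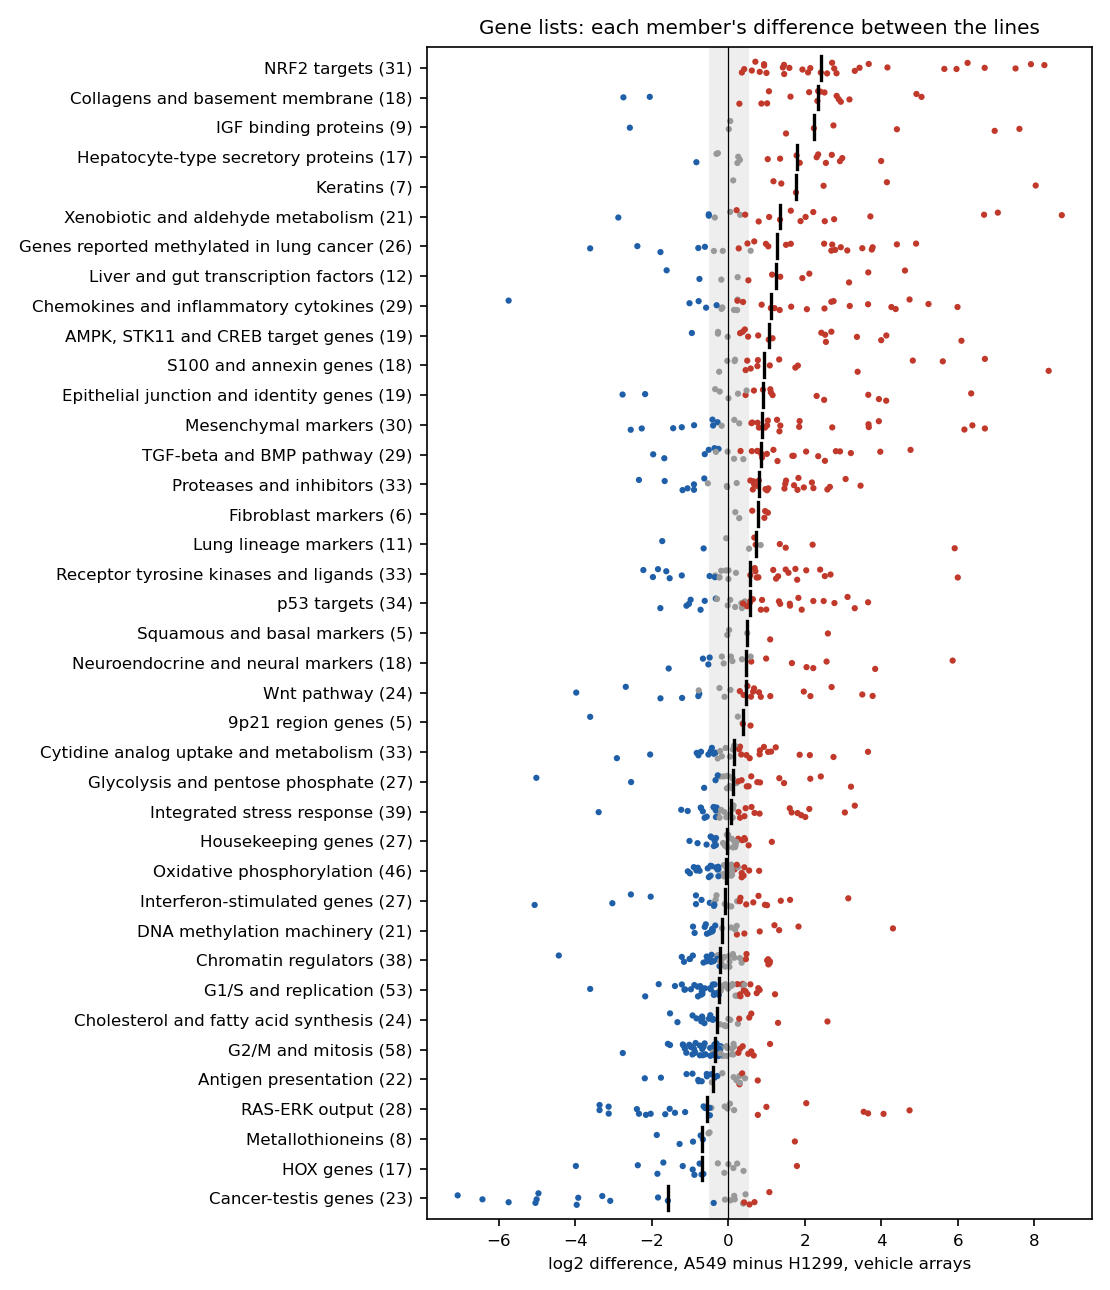
Difference between the lines (x axis, log2 A549 minus H1299) for every tested member of each list with at least 5 tested members (number in brackets), in red where called higher in A549, in blue where called higher in H1299 and in grey where not called; vertical scatter is for display. Black bars are list medians and the grey band runs from the lower to the upper quartile of all tested genes, with NRF2 targets at 2.42 and cancer-testis genes at -1.58 over the members that passed the filter; without it the latter was -0.085.

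The epithelial programme was stronger in A549. All 6 called keratins were higher there by more than 1, out of 7 tested: KRT8 read 6813 and 7602 against 406 and 349 (4.14), KRT19 171 and 139 against 1.35 and 1.10 (2.49), and KRT18, the partner of KRT8, 11538 and 13206 against 4583 and 4846 (1.38). Of 19 tested genes of epithelial junctions and identity, 12 were higher in A549 and 2 in H1299 (9 and 2 by at least 1), with a median of 0.90 (0.26 over all 33 on the array). The surface sialoprotein CD24 read 5812 and 5993 against 41.6 and 39.9 (6.35), and its 6 kept probe sets ranged from 2.84 to 7.11. Plakoglobin, JUP, read 1163 and 1470 against 33.3 and 58.1 (4.13), and the protease inhibitor SPINT2 differed by 3.94. CDH1, which encodes E-cadherin, was modest even in A549, at 191 and 199 against 14.5 and 2.44 (2.50, SE 0.169, adjusted p = 2.33e-11). The laminin receptor subunit ITGA6 (924 and 816 against 6580 and 5662, -2.77) and the plakophilin PKP2 (-2.18) were higher in H1299.

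JUP is shown as the gene of this list with the largest difference after CD24. Its promoter, on the minus strand at chr17:41785967-41786176 (GRCh38.p14, RefSeq), holds 2 copies of the E-box CAGGTG, to which ZEB and SNAIL repressors are known to bind, one on each strand, that begin 54 and 43 bases before the start. The motif was present in 10 of the 12 list members with a promoter entry, including ITGA6, which was higher in H1299, beside 20.7% of all promoters.
JUP: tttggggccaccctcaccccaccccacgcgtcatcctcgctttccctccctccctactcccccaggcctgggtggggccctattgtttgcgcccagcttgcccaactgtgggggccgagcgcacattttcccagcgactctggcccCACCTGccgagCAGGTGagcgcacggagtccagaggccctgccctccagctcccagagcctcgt

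The mesenchymal list did not form the mirror image. Of 30 tested, 19 were higher in A549 and 8 in H1299 (14 and 4 by at least 1). S100A4 read 10312 and 11949 against 66.0 and 83.8 (6.71), the matrix protein TGFBI 10462 and 11962 against 105 and 145 (6.17), fibronectin FN1 2873 and 3181 against 175 and 161 (3.93), and the actin-binding TAGLN 810 and 871 against 26.4 and 49.1 (3.66). The transcription factors that repress epithelial genes were on the other side: TWIST1 read 60.6 and 45.6 against 479 and 454 (-2.55), ZEB2 147 and 132 against 463 and 409 (-1.44), and ZEB1 873 and 766 against 1126 and 1079 (-0.42). The YAP-responsive matricellular gene CCN1 (-2.27) and the receptor kinase AXL (2612 and 2640 against 6073 and 6242, -1.22) were also higher in H1299. Vimentin, VIM, read 9503 and 10841 against 11310 and 13528 (-0.28, adjusted p = 0.0437), and lost its call without A549 replicate 1 (-0.19, adjusted p = 0.276) and without H1299 replicate 2 (-0.16, adjusted p = 0.369).

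Collagen and basement membrane genes were among the most divided lists. Every one of the 18 tested was called, 16 higher in A549 and 2 in H1299, with a median of 2.34 (1.56 over all 25 on the array, 19 of them called). The collagen IV chains COL4A2 (1494 and 1847 against 24.9 and 14, 5.05) and COL4A1 (1812 and 1796 against 18.0 and 41.8, 4.92) are encoded head to head and differed together, and COL4A6 (3.17), COL4A5 (2.51), the nidogen NID2 (2.94), the perlecan HSPG2 (2.83) and the laminin chain LAMA5 (2.88) followed. The other of the 2 kept probe sets gave 1.61 for COL4A2 and 2.60 for COL4A1. The laminin-332 chain LAMB3 (85.1 and 72.5 against 713 and 707, -2.75) and LAMA2 (-2.06) went the other way. Of 33 proteases and inhibitors, 22 were higher in A549 (15 by at least 1), led by SERPINE2 (3.46), SERPINB9 (3.06) and SERPINB1 (2.65), and 7 in H1299 (4 by at least 1). Those 7 held the urokinase receptor PLAUR (612 and 507 against 3029 and 2874, -2.34), its ligand PLAU (-1.20) and the collagenase MMP1 (-1.67). MMP1 was under the array median in both lines, at 1.63 and 1.15 against 85.7 and 63.5.

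A549 expressed genes typical of hepatocytes. Of 17 tested hepatocyte-type secretory proteins, 11 were higher in A549, each by at least 1, and SERPINA1 was higher in H1299 (-0.84; -0.40 without A549 replicate 1, adjusted p = 0.304), with a median of 1.78 (0.33 over all 38 on the array). All 3 fibrinogen chains were on the list: FGB read 679 and 625 against 14.9 and 7.20 (3.99, SE 0.187, adjusted p = 4.18e-14), FGG 289 and 291 against 4.49 and 13.8 (2.98), and FGA 409 and 421 against 42.8 and 45.8 (2.55). The complement components C5 (805 and 735 against 58.9 and 91.8, 2.92) and C3 (2.70) and the apolipoproteins APOC1 (2.35) and APOH (1.86) were alike in direction. Of 38 genes of the list on the array, 14 exceeded the median of any vehicle array, so most of the hepatic secretome stood at background in both lines. Among 12 tested transcription factors of liver and gut, 8 were higher in A549, 7 by at least 1: FOXA2 read 945 and 1098 against 9.91 and 11.7 (4.62), ELF3 1267 and 903 against 53.2 and 57.5 (3.66), NR5A2 490 and 473 against 31.6 and 20.2 (3.15) and CEBPB 5944 and 6479 against 1353 and 1463 (2.12). KLF4 (-1.62) and GATA6 (-0.76) were higher in H1299.

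FGA and C5 are shown because theirs are the promoters of the list with the HNF1 recognition letters GTTAATNAT on either strand, which was found in 2 of 14 listed promoters and in 0.798% of all. Both genes lie on the minus strand (GRCh38.p14, RefSeq), FGA at chr4:154590733-154590942 with the match 55 bases before the start and C5 at chr9:121050266-121050475 with the match 69 bases before it.
FGA: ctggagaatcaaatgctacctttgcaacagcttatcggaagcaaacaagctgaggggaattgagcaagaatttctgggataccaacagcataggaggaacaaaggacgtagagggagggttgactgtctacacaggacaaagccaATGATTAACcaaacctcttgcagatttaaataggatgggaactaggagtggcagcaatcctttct
C5: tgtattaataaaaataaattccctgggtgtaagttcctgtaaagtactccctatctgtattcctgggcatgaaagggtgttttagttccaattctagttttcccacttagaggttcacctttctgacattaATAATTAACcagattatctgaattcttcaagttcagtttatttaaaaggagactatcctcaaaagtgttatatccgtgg

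Markers of the lung epithelium itself were few. The defining alveolar factor NKX2-1 stood at background in both lines, its brightest probe set reading at most 9.72 on any vehicle array, and surfactant SFTPC at most 60.6. Of 11 tested lung lineage genes 6 were higher in A549, led by the secretory-cell disulfide isomerase AGR2 (2491 and 1932 against 6.63 and 3.13, 5.92) and the mucin MUC5AC (129 and 143 against 4.04 and 5.04, 2.20), and LAMP3 (-1.73) and ETV5 (-0.65) were higher in H1299. LAMP3 was under the array median in both lines, at 1.28 and 1.57 against 86.5 and 71.9. Among neural and neuroendocrine genes 8 of 18 were higher in A549 and 4 in H1299, 6 and 1 by at least 1. The share called was 66.7%, beside 65.2% of all genes tested. The adhesion molecule NRCAM (2803 and 2941 against 33.5 and 5.94, 5.86) and the vesicle proteins SNAP25 (3.84) and SYT1 (2.57) were the largest, while UCHL1 was bright in both lines (6131 and 6903 against 7552 and 7117, -0.17, not called). The other of the 2 kept probe sets gave 1.51 for NRCAM, 1.27 for SNAP25 and 2.68 for SYT1. Defining leukocyte markers stood at background in both lines. PTPRC and the T-cell chains CD3D and CD3E read at most 56.3 on any vehicle array, and 2 of 21 listed genes exceeded the median of any vehicle array, with summed signals of 723 to 865 in A549 and 637 to 807 in H1299. The corresponding counts were 1 of 14 for endothelial and 4 of 14 for fibroblast markers (sums of 938 to 1150 in A549 and 491 to 661 in H1299). Among the latter COL6A3 was under the array median in both lines, at 66.8 and 50.5 against 9.46 and 15.1. The 4 called fibroblast markers, COL6A3 (1.03), COL1A1 (0.96), FBLN1 (0.94) and THY1 (0.62), were higher in A549 as the collagen list was (without A549 replicate 1 FBLN1 lost its call, adjusted p = 0.0822, and THY1 lost it without A549 replicate 1, A549 replicate 2 or H1299 replicate 2, at 0.53, 0.72 and 0.18, adjusted p = 0.176, 0.0663 and 0.601), and their part in that result was not tested.

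Outputs of the ERK kinase pathway, which relays RAS signals and is checked by its own induced inhibitors, were split, with more of the 28 tested genes higher in H1299 (16, of which 12 by at least 1) than in A549 (7, of which 5). The feedback phosphatase DUSP6 read 265 and 272 in A549 and 2732 and 2485 in H1299 (-3.13, SE 0.108, adjusted p = 2.32e-16). The AP-1 subunit FOSL1 read 401 and 467 against 4532 and 5031 (-3.37, SE 0.131, adjusted p = 1.68e-15), the chromatin factor HMGA2 1054 and 1039 against 10799 and 11442 (-3.37), and the ETS factor ETV1 45.3 and 52.1 against 677 and 672 (-3.13). The other of the 2 kept probe sets of ETV1 gave -0.21, a far smaller difference toward H1299. The Sprouty inhibitors SPRY2 (-2.39), SPRY4 (-2.16) and SPRY1 (-1.13) shared that direction. The phosphatases DUSP4 (816 and 773 against 28.8 and 8.49, 4.06) and DUSP1 (5428 and 6133 against 490 and 445, 3.54) and the cytokine IL11 (4.74) did not. CCND1, a classical target, did not differ beyond its spread (1938 and 1959 against 1660 and 2162, 0.04, 95% interval -0.22 to 0.30).

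Of 33 tested receptors and ligands upstream, 17 were called higher in A549 and 8 in H1299, 12 and 6 of them by at least 1. The list median was 0.57 and ran from -0.07 to 0.68 over the alternative settings. Epiregulin, EREG, a ligand of EGFR, read 2414 and 2446 against 12.9 and 1.03 (6.00), IGF1R 2175 and 2199 against 321 and 312 (2.67), MET 3797 and 4328 against 1105 and 1263 (1.75) and EGFR 1612 and 1649 against 514 and 542 (1.57, SE 0.0851, adjusted p = 5.56e-13). The 3 kept probe sets of EGFR ran from 0.05 to 1.57, so the size of its difference depends on the probe set. The kinase MERTK (-2.22), the ligand PDGFC (-1.97) and the EGFR ligand HBEGF (-1.54) were higher in H1299. Of the 9 tested insulin-like growth factor binding genes, IGFBP3 (2389 and 2540 against 88.0 and 83.5, 4.41), IGFBP2 (2.75), IGFBP6 (2.23) and IGFBP1 (1.51) joined IGFBP7 and IGFBP4 in A549, whereas the RNA-binding IGF2BP2 was higher in H1299 (471 and 472 against 3013 and 2940, -2.58).

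Genes linked to CREB and its coactivators, which STK11 and its downstream SIK kinases restrain, were higher in A549 in 15 of 19 cases, 10 of them by at least 1, and PPARGC1A alone was higher in H1299 (-0.96). PPARGC1A was under the array median in both lines, at 1.41 and 1.56 against 29.6 and 36.5. SIK1 read 3449 and 3478 against 37.8 and 5.47 (6.09, SE 0.231, adjusted p = 1.10e-15). The phosphodiesterases PDE4B (563 and 601 against 2.72 and 3.39, 4.13) and PDE4D (3.36), the placental hormone INSL4 (4.00), the prostaglandin synthase PTGS2 (2.69) and the urea-cycle enzyme CPS1 (2.53) were called with it. The 3 kept probe sets of PDE4D ran from 0.69 to 3.36, and the 2 of PDE4B from 1.74 to 4.13. The STK11 transcript did not pass (177 and 193 against 217 and 244, -0.27, 95% interval -0.67 to 0.13, adjusted p = 0.221).

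Among tested transcripts of chemokines, cytokines and some of their receptors and regulators, more were higher in A549. Secreted protein was not measured. Of 29 tested chemokine and cytokine genes 19 were higher there (16 by at least 1) and 5 in H1299 (2 by at least 1), with a median of 1.12 (0.29 over all 42 on the array). The neutrophil chemokine CXCL5 read 3288 and 3048 against 11.3 and 26.4 (5.99), IL18 1296 and 1174 against 2.04 and 1.31 (5.23) and the monocyte chemokine CCL2 578 and 667 against 2.20 and 1.89 (4.26). RELB (200 and 195 against 432 and 433, -1.02) and the receptor IL13RA2 were the 2 larger differences toward H1299. TGF-beta and BMP genes (19 of 29 higher in A549 and 6 in H1299, 13 and 2 by at least 1) were led by the inhibitor SMAD6 (4.76), the BMP antagonist GREM1 (3.97) and ID2 (3.20), with the ubiquitin ligase SMURF2 (1897 and 1920 against 7333 and 7785, -1.97) and the co-receptor TGFBR3 (-1.68) higher in H1299. Wnt genes (14 of 24 higher in A549 and 6 in H1299, 6 and 4 by at least 1) included the secreted antagonists SFRP1 (1202 and 1200 against 60.6 and 56.0, 3.77) and DKK1 (4606 and 4904 against 410 and 372, 3.50) on one side, and LEF1, the ligand WNT5B (-2.68) and the antagonist DKK3 (-1.78) on the other.

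Cancer-testis genes showed the opposite bias. Of 23 tested, 13 were higher in H1299, 12 of these by at least 1, and 4 in A549, 1 by at least 1, with a median of -1.58. That median depends on which members are tested: it was -0.085 over all 38 on the array, 19 of them called, and -3.95 over the 14 that passed a filter on the vehicle arrays. Beside MAGEA4 and TDRD12, MAGEA12 read 169 and 188 in A549 and 6981 and 6854 in H1299 (-5.05, SE 0.0847, adjusted p = 2.26e-21), MAGEA1 7.11 and 33.5 against 1679 and 1535 (-5.02), CTAG2 9.48 and 6.74 against 1166 and 1283 (-4.97), MAGEA6 571 and 626 against 10126 and 9536 (-3.97), GAGE1 differed by -3.93, the RNA helicase DDX43 0.863 and 0.803 against 287 and 295 (-3.30) and MAGEA10 3.52 and 2.91 against 248 and 290 (-3.09). The other of the 2 kept probe sets of CTAG2 gave -0.305. The MAGEA and GAGE genes are near-identical families whose probe sets may detect several members. PRAME was bright in both lines (1241 and 1386 against 1688 and 1758, -0.39). The mitotic kinase PBK (2877 and 3001 against 1383 and 1381, 1.07) was the largest difference toward A549, and SPANXB1 (0.68), DAZL (0.55) and MAGEB2 (0.41) were called at signals no higher than 64 on any vehicle array; for MAGEB2 the arrays of the 2 lines overlapped. Leaving out A549 replicate 1 ended the calls of MAGEB2 (0.07, adjusted p = 0.742) and DAZL (0.36, adjusted p = 0.102), leaving out H1299 replicate 2 ended that of MAGEB2 (0.10, adjusted p = 0.642), and leaving out A549 replicate 2 or H1299 replicate 2 ended that of SPANXB1 (adjusted p = 0.105 and 0.110).

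Interferon-stimulated genes were evenly divided, 10 of 27 higher in each line and 4 in each by at least 1. Over all genes tested 32.3% were higher in A549 and 32.8% in H1299, 13.0% and 9.21% by at least 1. The RNA sensor synthetase OAS1 read 276 and 273 against 2.86 and 3.00 (3.13) and OAS3 565 and 573 against 142 and 190 (1.61). On the other side, IFITM3 read 31.4 and 43.6 against 2181 and 2404 (-5.07, SE 0.150, adjusted p = 1.71e-17), the sensor IFIH1 6.12 and 4.14 against 270 and 274 (-3.04), IFITM2 299 and 286 against 1804 and 1935 (-2.55) and the ubiquitin-like ISG15 138 and 88.0 against 532 and 573 (-2.03). Antigen presentation genes leaned toward H1299, 12 against 3 of 22 tested, although only 3 did so by at least 1: the stress ligand MICB (717 and 416 against 2746 and 2474, -2.19), the peptide trimmer ERAP1 (-1.76) and the proteasome subunit PSMB8 (-1.10). The 3 kept probe sets of ERAP1 ran from -1.76 to -0.09. The class I heavy chains HLA-B (630 and 585 against 1149 and 1240, -0.94), HLA-C (-0.70), HLA-F (-0.56) and HLA-G (-0.45) and the light chain B2M (-0.36) were called in the same direction, with the caution that class I probe sets cross-detect.

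**Figure D4:**
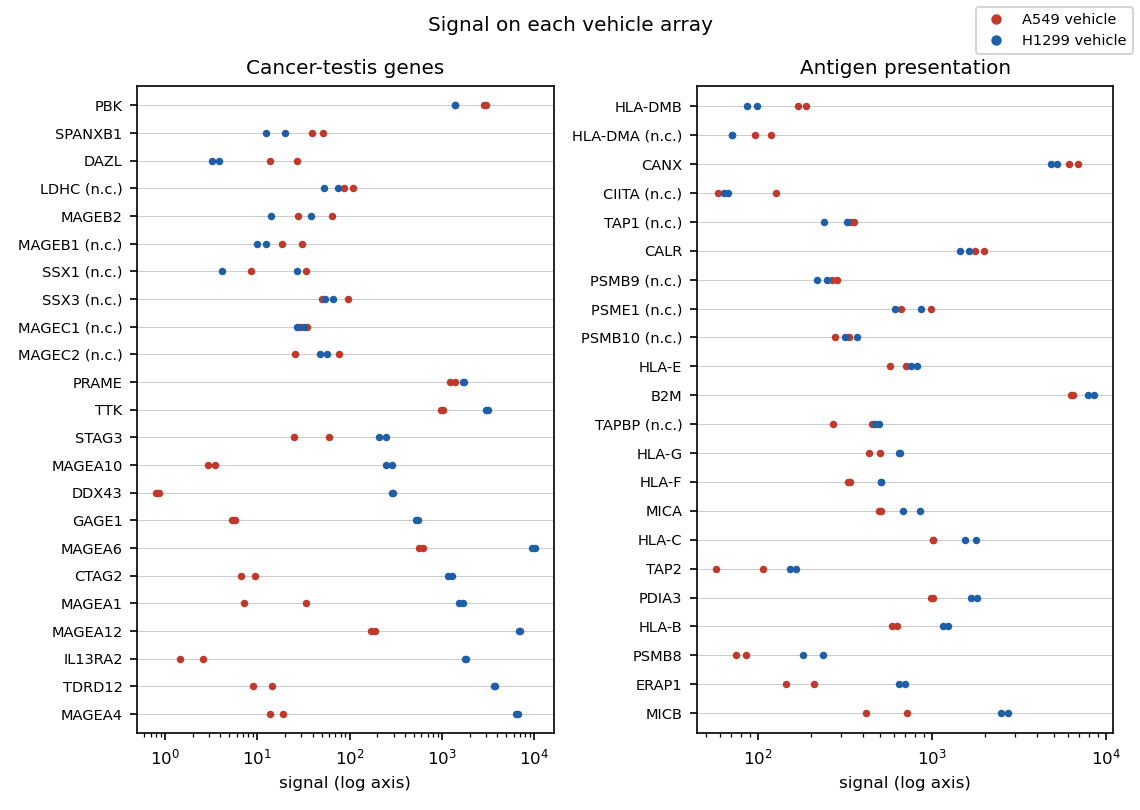
Signal (log axis) of every tested cancer-testis gene (left) and antigen presentation gene (right) on the 2 A549 vehicle arrays (red) and the 2 H1299 vehicle arrays (blue); n.c. marks genes that were not called. On the left MAGEA4, TDRD12 and IL13RA2 at the bottom stand at background in A549 and at 1783 or more in H1299.

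Of 17 tested HOX genes and cofactors, 10 were higher in H1299 (5 by at least 1) and HOXC13 in A549 (1.79). HOXB2 read 149 and 159 against 2902 and 2930 (-3.99, SE 0.150, adjusted p = 9.26e-16), the cofactor PBX3 456 and 421 against 2415 and 2382 (-2.37), HOXC6 1257 and 978 against 4109 and 4092 (-1.86) and HOXC10 69.7 and 104 against 340 and 361 (-1.70). All 14 called S100 and annexin genes, out of 18 tested, were higher in A549, including ANXA3 (2870 and 2609 against 24.3 and 25.4, 5.61) and S100P (923 and 1225 against 7.91 and 5.60, 4.82). Metallothioneins, zinc-binding proteins, were higher in H1299 in 5 of 7 cases, among them MT1H (1028 and 1130 against 4033 and 4037, -1.87) and MT1X (-1.28), while the zinc exporter SLC30A1 was higher in A549 (1.74). The metallothionein probe sets overlap in sequence, and MT1F gave -0.73 on one probe set and 0.65 on another; without A549 replicate 2 the former was -0.32 (adjusted p = 0.218).

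For the uptake and activation of the cytidine analogs used in the study, the lines were mixed: 15 of 33 tested genes were higher in A549 (7 by at least 1) and 10 in H1299 (2 by at least 1), with a median of 0.15. The share called was 75.8%, beside 65.2% of all genes tested. Over all genes 13.0% were higher in A549 and 9.21% in H1299 by at least 1. DCK, the kinase that activates decitabine, did not pass (779 and 792 against 848 and 807, -0.07, 95% interval -0.33 to 0.18, adjusted p = 0.629). The kinases UCK1 and UCK2 had no probe set naming them alone and were not tested, so activation of azacitidine was not read. CDA, the deaminase that inactivates both drugs, read 125 and 144 in A549 and 10.1 and 2.26 in H1299 (2.13, SE 0.25, adjusted p = 1.66e-07). The equilibrative transporter SLC29A1 read 266 and 222 against 447 and 438 (-0.79), the triphosphatase SAMHD1 97.7 and 90.2 against 189 and 194 (-0.83), the thymidylate synthase TYMS 5910 and 6671 against 9633 and 11105 (-0.72), and the ribonucleotide reductase subunits RRM1 and RRM2 differed by 0.30 and -0.38, the former losing its call without A549 replicate 2 (adjusted p = 0.0642) and without H1299 replicate 2 (adjusted p = 0.158). The exporter ABCG2 (1190 and 1082 against 57.7 and 64.3, 3.65) was higher in A549, the exporter ABCB1 (25.1 and 23.3 against 199 and 201, -2.05) and the ectonucleotidase NT5E (559 and 469 against 4100 and 4060, -2.92) in H1299.

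The drugs' targets also differed. DNMT1, the maintenance methyltransferase, read 1458 and 1420 in A549 and 2577 and 2792 in H1299 (-0.88, SE 0.0692, adjusted p = 2.79e-10), DNMT3A 123 and 162 against 190 and 213 (-0.43; adjusted p = 0.188 without A549 replicate 1 and 0.0981 without H1299 replicate 2), and DNMT3B 538 and 420 against 259 and 253 (0.82). The cytidine deaminase APOBEC3B (1083 and 755 against 11 and 20.4, 4.30) was the largest of the 17 called among 21 tested genes of the methylation machinery. Of 38 chromatin regulators 63.2% were called (65.2% of all genes tested), 17 higher in H1299 and 7 in A549, 5 of each by at least 1. Toward H1299 these included HDAC9 (13 and 2.61 against 838 and 808, -4.44), HDAC2 (-1.22) and KMT2A (-1.16), and toward A549 the acetyltransferase EP300 (1.09) and the remodeller SMARCA1 (1.08). SMARCA2, an ATPase of the SWI/SNF complex, was higher in A549 (713 and 560 against 326 and 271, 1.01). Its paralog SMARCA4 was -1.01 on its brightest probe set (184 and 137 against 368 and 337) and 1.01 on another of 5 kept, so no direction can be given. Of 26 tested genes that have been reported as methylated in lung cancer, 18 were higher in A549 (14 by at least 1) and 5 in H1299 (3 by at least 1). Those low in H1299 included THBS1 (2016 and 1669 against 35.4 and 25.4, 4.91), IGFBP3, SFRP1 and the death-associated kinase DAPK1 (1410 and 1416 against 78.6 and 72.5, 3.75), and those low in A549 included CDKN2A and SHOX2 (80.6 and 48.5 against 454 and 475, -2.38). The 3 kept probe sets of THBS1 ran from 1.38 to 4.91. Methylation itself was not measured.

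Central metabolism and proliferation differed less in size. Of 58 G2/M genes 36 were higher in H1299, 8 by at least 1, and 7 in A549, 1 by at least 1, with a median of -0.34: the kinetochore gene NDC80 stood out (-2.76), and TTK (-1.58) and the condensin subunit NCAPG (-1.53) followed, whereas TOP2A (1.09) was higher in A549. Of 53 G1/S genes 27 were higher in H1299, 7 by at least 1, and 12 in A549, 1 by at least 1, led after CDKN2A by CCND2 (-2.18), CCNE2 (456 and 401 against 1569 and 1621, -1.82) and the helicase subunit MCM7 (-1.40). The other of the 2 kept probe sets of CCND2 gave -0.20. Glycolysis was divided by isoform: HK2 read 49.6 and 12.4 against 2287 and 1617 (-5.02), HK1 642 and 677 against 443 and 321 (0.76), the glucose transporter SLC2A3 115 and 90.2 against 791 and 712 (-2.55), SLC2A1 1075 and 945 against 558 and 551 (0.83), and the regulator PFKFB3 4451 and 3989 against 431 and 426 (3.21). The other of the 2 kept probe sets of HK2 gave -1.90, so the size of its difference depends on the probe set. Of 24 sterol and fatty acid synthesis genes 12 were higher in H1299 and 5 in A549, 2 of each by at least 1, with INSIG1 (-1.53) and ACAT2 (-1.33) against FADS2 (2.59) and ACLY (1.30) in A549. The share called was 70.8%, beside 65.2% of all genes tested. Of 39 stress-response genes 15 were higher in A549, 8 by at least 1, and 13 in H1299, 3 by at least 1. NUPR1 (533 and 589 against 36.6 and 43.1, 3.04), the amino acid transporter chain SLC3A2 (2.01) and SLC7A11 were among the largest toward A549, and NIBAN1 (75.7 and 60.9 against 1020 and 1019, -3.39) was the largest toward H1299. Oxidative phosphorylation (25 of 46 called, 2 of them by at least 1, median -0.07) and housekeeping genes (15 of 27 called, 2 by at least 1, median -0.03) had medians near that of all genes, and GAPDH read 10384 and 12759 against 10801 and 12980 (-0.04, 95% interval -0.34 to 0.26).

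The same difference between the lines was then read in the 24 drug-treated arrays. Their signals are not averaged into the vehicle difference of a gene. They do enter its SE and p-value, the filter on dim probe sets and the choice of probe set for each gene. The calls in vehicle and under drug are therefore not independent of each other. With 12 arrays per line, 6854 of the 8024 genes were called (85.4%). Of the 5229 genes called in vehicle, 4960 were called in the same direction there, 55 in the opposite direction and 214 not at all, and for 2342 the arrays of one line lay wholly above those of the other on all 28. Among genes with a vehicle difference of at least 1, that held for 1426 of 1783. The difference in vehicle and the difference under drug were themselves unlike, by an interaction term, for 866 genes.

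**Figure D5:**
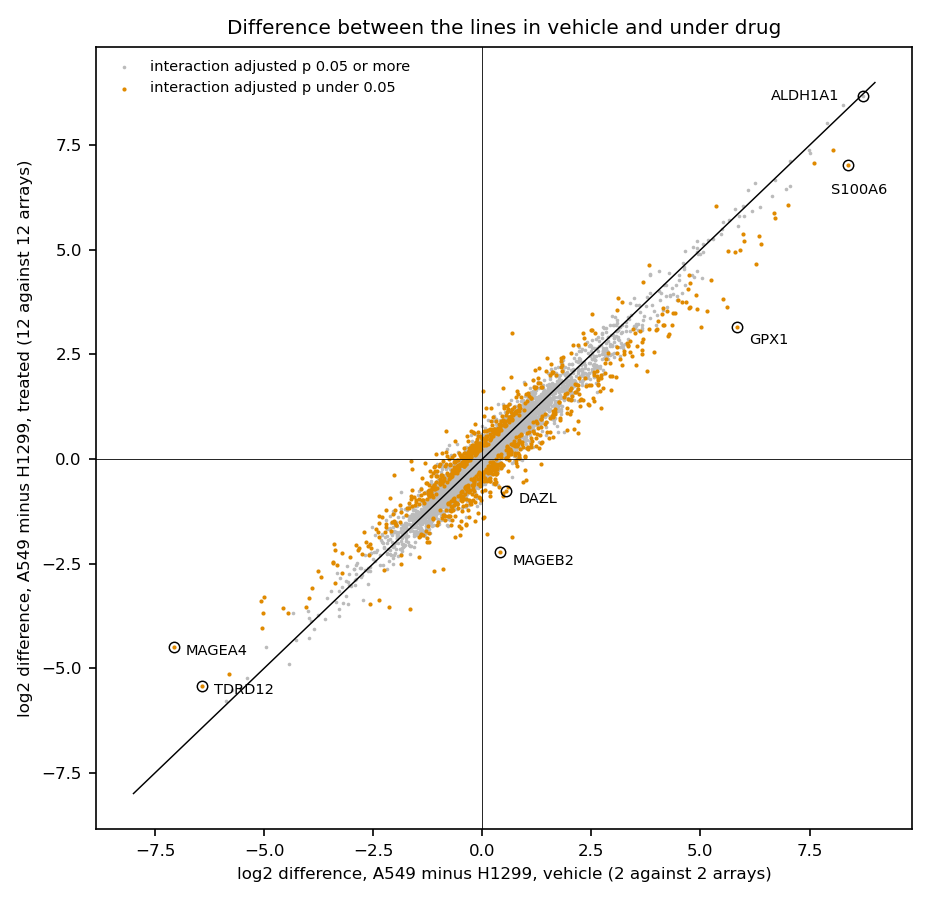
Difference between the lines in the vehicle arrays (x axis) and in the drug-treated arrays (y axis) for each tested gene, both as log2 A549 minus H1299; orange points have an interaction adjusted p under 0.05 and the diagonal marks equal differences. Most genes lie along the diagonal; MAGEB2 and DAZL cross from above 0 in vehicle to below 0 under drug, and MAGEA4, S100A6 and GPX1 lie nearer to 0 under drug.

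The on-or-off genes gave the clearest contrast. For 28 genes both A549 vehicle arrays exceeded 1000 and both H1299 vehicle arrays lay under their 25th percentile, and for 5 genes the reverse held; these were gathered after their values were seen. Of the 28, 23 never exceeded the array median on any of the 12 treated H1299 arrays, among them ALDH1A1 (highest 3.74), IGFBP7 (6.59), UBE2E1 (15.3), EREG (30.9) and NNMT (58.7). The other 5 did: GPX1, a glutathione peroxidase, on 8 arrays (up to 1247), the carboxypeptidase inhibitor LXN on 8 (up to 273), CRIP1 on 6 (up to 317), S100A6 on 6 (up to 263) and SRGN on 3 (up to 112), each highest with decitabine. Of the 5 genes off in A549, MAGEA4 exceeded the median on 10 of 12 treated A549 arrays (up to 787) and TDRD12 on 6 (up to 232), while IL13RA2, MME and CTAG2 did so on none (highest 11.5, 3.46 and 56.5). CTAG2 is read here on 1 of its 2 kept probe sets, and the other gave a vehicle difference of -0.305. On treated arrays the difference for MAGEA4 was -4.49 and that for GPX1 3.15, and both interactions passed (adjusted p = 4.29e-08 and 8.90e-10). The interaction term reuses the vehicle values by which these genes were gathered, so its p-values are not separate evidence.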

How the data were processed

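Per the labels, total RNA of each of the 28 samples, 4 with vehicle and 24 treated, was amplified and biotin-labelled. The deposited values are MAS5 signal intensity on a linear scale, made by the authors, per the submitters' processing notes; the MAS5 version and scaling target are not given in the sources used here. Values were taken as log2(signal + 32). Of 22277 probe sets, 19064 name 1 gene; those above the array median on at least 2 of 28 arrays were kept (13297), and the probe set with the highest mean stood for each gene, giving 8024 genes. limma 3.58.1 (R 4.3.3) fitted 1 mean per group over all 14 groups, with eBayes trend and Benjamini-Hochberg adjustment at 0.05; the step was tested on simulated data.

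The members and gene lists were chosen with earlier results of these data known. Named genes are the 20 largest differences in each direction whose arrays do not overlap, up to 4 called members of largest size per list and direction, a fixed panel, and family members. Genes on the Y chromosome and XIST were fitted but are not shown. Alternatives changed the normalization, pseudocount, filter, probe-set rule, arrays fitted, variance model, fold threshold and replicate block, and left out each array. Depth has no counterpart in array intensities.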

Additional observations from a re-analysis of the deposited data

Results flagged for a closer look

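For 3 named genes the difference between the lines had one sign in vehicle and the other under drug. They were picked for this, and the interaction term in limma reuses the same values, so its p-values are not separate evidence. For MAGEB2, a cancer-testis gene, the difference was 0.41 in vehicle and -2.23 over the treated arrays, a change of 2.641 (adjusted p = 4.36e-09); the median treated signal was 364 in A549 and 2402 in H1299. For DAZL, a germ-cell RNA-binding protein, it was 0.55 in vehicle and -0.76 under drug, a change of 1.306 (adjusted p = 3.42e-05), with treated medians of 369 and 745. The vehicle signals of both genes were no higher than 64 in either line, under the median of every vehicle array. Both therefore passed the filter only through drug-treated arrays. For NFE2L2 the difference was 0.22 in vehicle and -0.06 under drug, a change of 0.287 (adjusted p = 0.00719). When limma was fitted to the vehicle arrays alone, the vehicle difference was not called for MAGEB2, DAZL or NFE2L2 (adjusted p = 0.31, 0.123 and 0.0609).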

How the results depend on the processing

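The number of called genes stayed between 4804 and 5434 under quantile normalization, median centring, a lower or a higher pseudocount, no filter, a filter on the vehicle arrays, the vehicle arrays alone, eBayes without trend, and the 25th percentile of each array as a covariate (chosen after seeing the data). All kept probe sets gave 7526 of 11800. Requiring a difference of 1 left 1783 genes, 1044 higher in A549 and 739 in H1299, and 1747 over the treated arrays. A filter at the 75th percentile, which tests 4950 genes, gave 1661 higher in A549 and 4450 over the treated arrays, and turned MTAP to -4.20 because another probe set then stood for it. Leaving out 1 array gave 4587 to 4780 calls, 2256 to 2449 higher in A549 and 2331 to 2445 in H1299; the lone array left in a line is assumed to vary like the other groups. The deviations of same-numbered vehicle arrays correlated at 0.135, and over all 91 pairs of groups r ran from -0.244 to 0.263 with a median of 0.016 and 17 pairs over 0.1. As not every pair exceeded 0.1 and the labels name no shared source, the numbers were not taken to pair the samples. With a replicate block 5275 genes were called, 2621 and 2654 by direction, and 6866 over the treated arrays. List medians moved most with the filter: from -3.95 to -0.085 for cancer-testis genes, 0.33 to 2.46 for hepatocyte-type proteins (the upper value with the lower pseudocount) and 0.29 to 2.51 for cytokines, against 2.09 to 2.56 for NRF2 targets. Of 285 named genes 213 kept direction and call in every setting in which they were tested and 1, MTAP, reversed. Not all were tested in every setting. The filter on the vehicle arrays tested 268 of them, and under the filter at the 75th percentile 222 were tested and unchanged. Dim signals near the pseudocount limit the folds, and no detection flags were used here.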

Other observations

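Differences were unevenly spread over the chromosomes, given here as a description. On chromosome 6, 289 of 434 tested genes were called higher in H1299 and 46 higher in A549, with a median difference of -0.61. Chromosome 21 (47 against 18 of 92, median -0.41), chromosome 18 (61 against 25 of 115, median -0.33) and chromosome 19 (244 against 107 of 514, median -0.31) leaned the same way. Chromosome 17 leaned toward A549, with 225 of 468 genes higher there and 71 higher in H1299 (median 0.28). An unbroken run of 17 tested neighbours from UBE2J1 to PRDM13, among them the kinase MAP3K7 and the cyclin CCNC, was called higher in H1299 (median -1.02), and one of 16 from SEC23B to BCL2L1, the gene of an inhibitor of apoptosis, higher in A549 (median 1.44). Copy number was not measured, and its part in these values was not tested.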
